A study of Mus musculus with 8 samples.

Results

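Immediate early genes are transcribed within minutes of a stimulus, from factors that are already in the cell, and 10 of them were followed here through single nuclei RNA sequencing (snRNA-seq) of the mouse ventricular-subventricular zone (V-SVZ). The 10 genes are Fos, Fosb, Jun, Junb, Jund, Egr1, Egr3, Nr4a1, Ier2 and Btg2, chosen by symbol, and all 10 were found once among the 32285 genes of the deposited tables. Each of 8 mice, 4 per genotype (Tsc2 wt/wt or Tsc2 mut/mut), gave 1 library at postnatal day 90. In both groups Cre recombinase was Nestin-CRE-ERT2, which is active in neural stem cells (NSCs) once tamoxifen has been given (here to pups), and recombined cells carried a Rosa26 tdTomato reporter. Tsc2 mut/mut mice carried the conditional Tsc2tm1.1Mjg allele on both chromosomes, and Tsc2, with Tsc1, restrains mTOR complex 1. Tissue was held in trypsin for 7 min at 37 °C, triturated, lysed for 15 min on ice with cycloheximide, which blocks translation, and frozen, and tdTomato-positive nuclei were sorted. No transcription inhibitor is named for the trypsin step in the sources used here. The conditional allele loses early exons while the libraries count 3′ ends, so the level of Tsc2, at 19.3 to 22.3 UMIs per 1000000 in Tsc2 wt/wt and 15.15 to 21.55 in Tsc2 mut/mut libraries, does not check the genotype.

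Calcium, growth factor and stress signals reach these genes through kinases such as ERK and RSK, which phosphorylate the transcription factors CREB, Elk1 and SRF at promoters that are already open. Their products are mostly transcription factors. Fos and Jun proteins pair as AP-1, Egr proteins bind GC-rich sites, Nr4a1 is an orphan nuclear receptor, Ier2 is a short nuclear protein, and Btg2 is an antiproliferative partner of the CCR4-NOT deadenylase. The same genes are used in brain as a record of neuronal activity, and they are known to be switched on by enzymes and warmth while tissue is taken apart, most visibly in microglia. Their mRNAs are short-lived, so a level in a nucleus reflects transcription shortly before lysis.

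Promoters are shown for the 5 genes that carry a half-site of the cAMP response element, to which CREB binds. RefSeq promoters of GRCm38.p6, from 250 bases before to 50 bases after the start, were matched by symbol for 7 of the 10 genes. Each line runs 5′ to 3′ on the gene's strand, and capitals mark TGACG, its reverse complement CGTCA, or the full element. The windows are chr12:85473640-85473939 on the plus strand, chr7:19309996-19310295, chr8:84978699-84978998 and chr1:134079106-134079405 on the minus strand, and chr15:101266596-101266895 on the plus strand.
Fos: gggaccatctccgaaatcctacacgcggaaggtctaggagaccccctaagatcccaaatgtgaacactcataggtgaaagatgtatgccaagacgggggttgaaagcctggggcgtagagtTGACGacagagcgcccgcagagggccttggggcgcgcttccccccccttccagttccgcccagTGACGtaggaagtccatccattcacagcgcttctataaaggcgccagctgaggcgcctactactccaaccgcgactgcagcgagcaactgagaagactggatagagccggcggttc
Fosb: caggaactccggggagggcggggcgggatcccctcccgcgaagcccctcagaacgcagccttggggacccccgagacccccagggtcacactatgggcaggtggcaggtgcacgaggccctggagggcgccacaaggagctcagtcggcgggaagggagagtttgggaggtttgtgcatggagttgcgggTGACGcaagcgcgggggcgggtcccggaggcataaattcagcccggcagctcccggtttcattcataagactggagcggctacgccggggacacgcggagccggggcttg
Junb: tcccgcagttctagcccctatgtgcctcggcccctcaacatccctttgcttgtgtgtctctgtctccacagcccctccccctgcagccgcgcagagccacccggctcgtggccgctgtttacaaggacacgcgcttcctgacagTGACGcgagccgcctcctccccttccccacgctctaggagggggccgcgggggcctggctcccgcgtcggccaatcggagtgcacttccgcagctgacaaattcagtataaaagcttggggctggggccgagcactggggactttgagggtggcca
Nr4a1: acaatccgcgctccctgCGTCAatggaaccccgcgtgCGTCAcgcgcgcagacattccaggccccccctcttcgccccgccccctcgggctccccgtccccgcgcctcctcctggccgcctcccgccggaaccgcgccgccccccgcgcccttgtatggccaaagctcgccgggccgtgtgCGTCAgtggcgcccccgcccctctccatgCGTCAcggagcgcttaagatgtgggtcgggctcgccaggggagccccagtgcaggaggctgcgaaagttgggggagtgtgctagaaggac
Btg2: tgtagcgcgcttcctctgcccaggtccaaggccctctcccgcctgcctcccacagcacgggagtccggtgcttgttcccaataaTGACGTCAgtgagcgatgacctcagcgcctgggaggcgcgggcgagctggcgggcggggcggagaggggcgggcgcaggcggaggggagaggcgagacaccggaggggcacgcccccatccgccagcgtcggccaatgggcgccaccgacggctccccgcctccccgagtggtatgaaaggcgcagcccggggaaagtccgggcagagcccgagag
The half-sites began at bases -129 and -66 from the start in Fos, at -60 in Fosb and at -106 in Junb. Nr4a1 held 4 of them, at -233, -213, -69 and -40. Btg2 held the full element TGACGTCA at -166, which contains the half-site on both strands. On either strand a half-site was found in 5 of 7 promoters of the set against 20.8% of all 32851 promoters of this length, the full element in 1 of 7 against 1.79%, and the GC box GGGCGG in 5 of 7 against 35.7%. The CArG box of SRF was in 0 of 7 windows against 1.63% of all. Sequence outside these windows and the promoters of Egr1, Egr3 and Ier2 were not searched, so this does not show that the genes lack the box. These motifs were chosen after the sequences were seen, and a match is a description of letters and not of binding.

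The genes are compact. By GENCODE M21 on GRCm38 they span from 1.52 kb in Ier2 to 7.36 kb in Fosb, with Nr4a1 at 20.53 kb as the exception, whereas the median feature spans 12.27 kb and 45.2% of features span under 10 kb. Jun (chr4:95049034-95052222), Jund (chr8:70698949-70700616) and Ier2 (chr8:84661331-84662852) are single exons. The RefSeq start of Nr4a1 lies inside its GENCODE span, and the RefSeq window of Jund (chr8:70697489-70697788) lies wholly before its GENCODE start. Jund, with none of these motifs in that window, is counted among the 7 promoters. Short genes have little intron for a nuclear read to fall in, so their values in nuclei were read beside those of all genes under 10 kb.

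Libraries held 11182335 to 36773832 unique molecular identifiers (UMIs) each. Barcodes with at least 300 genes numbered 37881, from 1923 to 10153 per mouse. Of these, 3470 had under 20% mitochondrial UMIs and are called nucleus-like, 33406 had at least 30% and are called mitochondria-rich, and 1005 lay between and entered neither class. Median UMIs per barcode were 1927 to 4432 in nucleus-like and 860 to 1304.5 in mitochondria-rich barcodes, and 166 barcode sequences were kept in more than 1 library. The 20000 barcodes with the fewest UMIs in each library gave the level of free RNA. The largest of these barcodes held from 55 UMIs in Tsc2 wt/wt replicate 3 to 461 in Tsc2 mut/mut replicate 3, so this background was not alike across mice. Kept barcodes were not removed from it, so it could share barcodes with the kept classes where that number was at least 300. Levels are CPM, which here are UMIs per 1000000 non-mitochondrial UMIs of a summed class, and a sum cannot tell more cells of a type from more RNA per cell. One library stood apart. In Tsc2 mut/mut replicate 4, 85.4% of nucleus-like barcodes passed the marker gate of choroid plexus, against 0.524% to 16.1% in the other mice.

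The first question was where the 10 mRNAs sat, in nucleus-like barcodes, in mitochondria-rich barcodes or in free RNA. Fos, Fosb, Jun, Junb, Ier2 and Btg2 were more abundant in nucleus-like than in mitochondria-rich barcodes in 7 of 8 mice. Jund and Egr3 were less abundant in nucleus-like barcodes in 8 of 8. Egr1 was more abundant in nucleus-like barcodes in 2 of 8 mice and Nr4a1 in 4 of 8. In mitochondria-rich barcodes the mean level of each gene was 0.664 to 1.32 times its level in free RNA. Single mice ran further apart, from 0.289 to 1.89 in Fos and from 0.183 to 2.02 in Fosb. Fos and Btg2 were below free RNA in 7 of 8 mice, while Egr3 was above it in 8 of 8 and Jund in 7 of 8. The levels by class are plotted for every mouse.

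**Figure D1:**
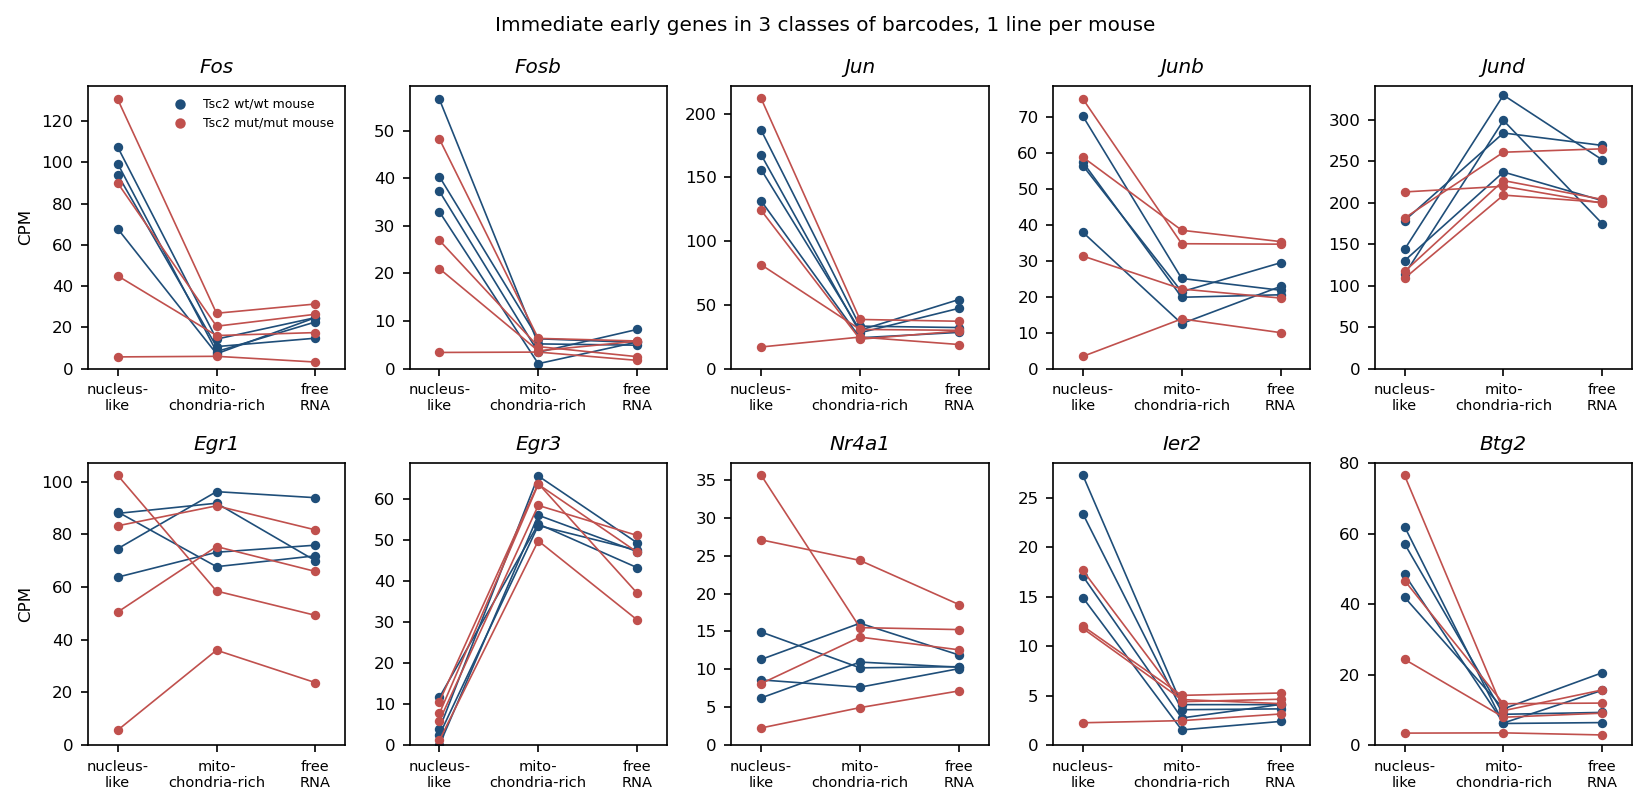
Levels of the 10 genes (y axis, CPM, with its own scale in each panel) in nucleus-like barcodes, mitochondria-rich barcodes and free RNA (x axis); each line joins the 3 values of 1 mouse, blue for Tsc2 wt/wt and red for Tsc2 mut/mut, 4 mice each. Fos, Fosb, Jun, Ier2 and Btg2 drop from the first to the second class in 7 of 8 mice, Egr3 climbs in 8 of 8, and the lowest red point in nucleus-like Fos, at 5.63 CPM, is Tsc2 mut/mut replicate 4.

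Fos, the founding AP-1 subunit, stood in nucleus-like barcodes at 67.8, 94.1, 99.5 and 107.5 CPM in the 4 Tsc2 wt/wt mice and at 90.03, 131, 45.0 and 5.63 CPM in the 4 Tsc2 mut/mut mice. In mitochondria-rich barcodes it stood at 7.15, 10.6, 8.21 and 14.3 CPM and at 20.5, 26.8, 16 and 5.92 CPM, in the same order of mice. Apart from Tsc2 mut/mut replicate 4, the classes did not overlap. Over all 8 mice the genotypes overlapped in both classes, and without that mouse they did not overlap in mitochondria-rich barcodes. Fosb, its activity-induced relative, ranged from 3.38 to 56.6 CPM in nucleus-like (median 35.1) and from 1.02 to 6.34 CPM in mitochondria-rich barcodes (median 4.17). Thus nucleus-like Fosb was 7.85 times the mitochondria-rich level on the means and Fos was 5.85 times.

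Within the Jun family the genes parted. Jun, the main AP-1 partner of Fos, was at 132, 187, 168 and 156 CPM in nucleus-like barcodes of Tsc2 wt/wt mice and at 124, 212, 81.5 and 16.9 CPM in Tsc2 mut/mut mice, whereas mitochondria-rich barcodes held 23.0 to 38.5 CPM (median 29.1). Junb, a weaker activator that is also induced, ranged from 3.38 to 75.1 CPM (median 57.01) against 12.5 to 38.5 CPM (median 21.8). Jund is transcribed in resting cells as well, and it was at 178, 130, 113 and 144 CPM in nucleus-like barcodes of Tsc2 wt/wt mice and at 117, 181, 109 and 213 CPM in those of Tsc2 mut/mut mice. All 8 values were below those of the same mice in mitochondria-rich barcodes, which ran from 209 to 329.6 CPM. Jund took 23.9% of all UMIs of the 10 genes in nucleus-like barcodes, 51.6% in mitochondria-rich barcodes and 50.5% in free RNA. The corresponding shares of Jun were 22.4% in nucleus-like and 6.23% in mitochondria-rich barcodes.

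Egr1 and Egr3, zinc finger factors that are best known from neurons, did not follow Fos. Egr1 ranged from 5.63 to 102.5 CPM in nucleus-like barcodes (median 78.9) and from 36.0 to 96.3 CPM in mitochondria-rich barcodes (median 74.3), and the classes overlapped. Egr3 was at 2.42, 11.6, 0 and 3.92 CPM in nucleus-like barcodes of Tsc2 wt/wt mice and at 7.70, 10.6, 5.90 and 1.13 CPM in those of Tsc2 mut/mut mice. Its mitochondria-rich levels lay between 49.9 and 65.7 CPM, far above every nucleus-like value. Nr4a1 overlapped between classes, at 2.25 to 35.6 CPM against 4.94 to 24.4 CPM. Ier2 was low in both, at 2.25 to 27.3 CPM (median 16) against 1.53 to 5.03 CPM (median 3.83), and Btg2 stood at 3.38 to 76.6 CPM (median 47.6) against 3.46 to 11.7 CPM (median 8.31).

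In the edgeR quasi-likelihood fit of 2 sums per mouse with the mouse as a block, 9 of the 10 genes passed the filter on low counts and 8 were called at an adjusted p under 0.05, 4 in each direction. The background was high, since 78.9% of all 10942 genes tested were called (39.5% higher and 39.4% lower in nucleus-like barcodes), so a count of 8 of 9 is no result about the set. The sizes carry the information. Fosb (log2 fold change 2.26 ± 0.28 SE, adjusted p = 1.0e-05), Fos (1.81 ± 0.27, 5.1e-05), Btg2 (1.72 ± 0.24, 2.4e-05) and Jun (1.43 ± 0.26, 0.00022) were higher in nucleus-like barcodes. Egr3 (-4.01 ± 0.33, 3.2e-07), Jund (-1.41 ± 0.25, 0.00016), Egr1 (-0.84 ± 0.23, 0.0043) and Nr4a1 (-0.59 ± 0.24, 0.040) were lower, Junb was not called (0.33 ± 0.25, 0.23) and Ier2 was not tested.

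Scaling decided the smaller calls. TMM factors set the median of all genes near 0, at -0.03, whereas library sizes alone, an alternative added after the data were seen, set it at 0.60 and called 51% of genes higher and 26.6% lower. On that scale Egr1 (-0.21, adjusted p = 0.52) and Nr4a1 (0.06, 0.83) were not called and Nr4a1 changed sign, Junb was called (0.97, 0.0084), and Fosb, Fos, Btg2, Jun, Jund and Egr3 kept their calls and directions. The call of Nr4a1 was also lost without Tsc2 wt/wt replicates 1, 2 or 3 or Tsc2 mut/mut replicates 2 or 3, each left out alone (adjusted p from 0.072 to 0.19 by edgeR). Without choroid plexus-like barcodes, also added after the data were seen, Ier2 passed the filter and was higher in nucleus-like barcodes (1.59 ± 0.26), as was Junb (0.62 ± 0.17), and Nr4a1 was not called. Without Tsc2 mut/mut replicate 4, all 10 genes were tested and called, 6 higher and 4 lower. As 78.9% of all genes were called in the fit of all 8 mice, this count is no result about the set.

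**Figure D2:**
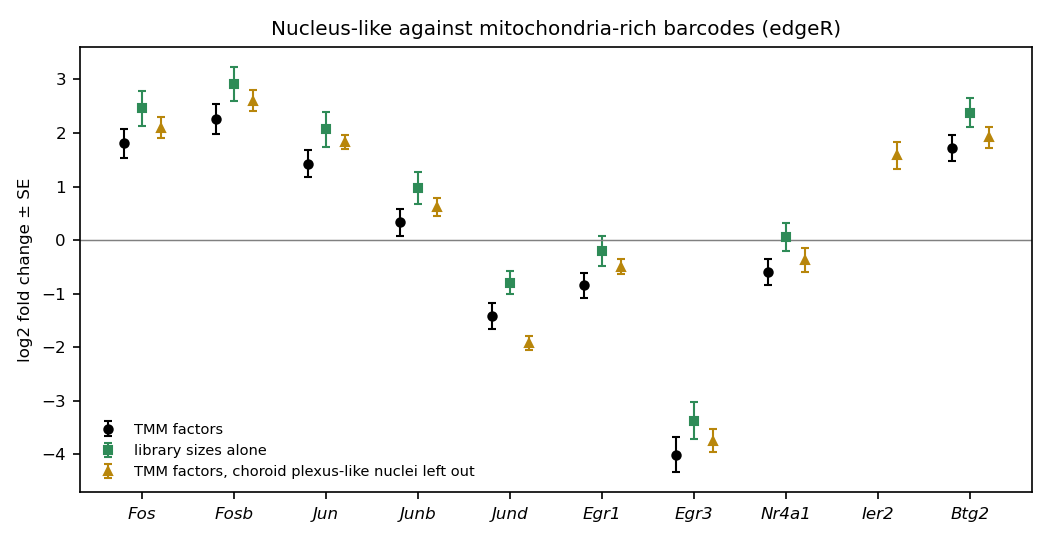
Log2 fold change ± SE (y axis) of nucleus-like against mitochondria-rich barcodes for each of the 10 genes (x axis), by edgeR over 8 mice, with TMM factors (black circles), library sizes alone (green squares) and choroid plexus-like nuclei left out (gold triangles). Fosb, Fos, Jun and Btg2 lie above 0 and Jund and Egr3 below 0 at all 3 settings, while Egr1 and Nr4a1 approach 0 on library sizes alone; Ier2 passed the filter at 1 setting.

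Gene lists drawn up with earlier results of these data known place the set among its neighbours. Of 38 other immediate early and primary response genes present, 23 were tested, 9 were higher and 9 lower in nucleus-like barcodes, with a median log2 fold change of -0.18 (-0.03 over all genes). Among all genes tested 39.5% were higher and 39.4% lower, so these counts are no result about that list. Arc, a synaptic immediate early gene, was lower (-4.60 ± 0.30), as was Egr4 (-4.37 ± 0.42), and both stood with Egr3, whereas Klf4 was higher (3.70 ± 0.31). Of 12 later genes of neuronal activity tested, 8 were lower and 3 higher (median -1.74), led by Penk (-4.44 ± 0.31), which encodes enkephalins, Nptx1 (-3.94 ± 0.29) and the neuropeptide precursors Vgf (-3.65 ± 0.32) and Scg2 (-3.29 ± 0.35). Excitatory neuron markers gated 0 nucleus-like and 5 mitochondria-rich barcodes, and medium spiny neuron markers gated 4 and 5. Markers of inhibitory neurons or neuroblasts gated 95 nucleus-like and 3 mitochondria-rich barcodes. Of 13 heat shock and chaperone genes tested, 2 were higher and 4 lower, among them Hspb1 (4.30 ± 0.34) and Hsp90ab1 (-1.83 ± 0.33).

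Genes with short spans were mostly lower in nucleus-like barcodes. Of 2269 genes under 10 kb that were tested, 1649 were lower and 212 higher, with a median of -1.39, and Jund, at -1.41, was at that median. Jun, Fos, Btg2 and Fosb also span under 10 kb, though at 3.19, 3.38, 3.95 and 7.36 kb they are longer than Jund at 1.67 kb, and they were higher. Egr1 and Egr3, at 5.16 and 5.41 kb, were lower, and Junb, at 4.24 kb, was not called. Of 21 upstream kinases and transcription factors tested, 9 were higher and 8 lower, including Rps6ka5, which encodes the CREB kinase MSK1 (2.91 ± 0.33), and Mapk3, which encodes ERK1 (-2.90 ± 0.21). These counts are close to the 39.5% higher and 39.4% lower over all genes and are no result about that list. Both tested genes of ex vivo activated microglia, Nfkbiz (2.48 ± 0.35) and Nfkbia (0.55 ± 0.19), were higher.

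The second question was which cell types held these mRNAs. Nucleus-like barcodes were gated on marker lists that contain none of the 10 genes. The gate gave 1252 astrocyte- or NSC-like, 564 oligodendrocyte-like, 465 choroid plexus-like, 351 microglia-like and 263 ependymal-like barcodes, and 375 stayed ungated. Astrocytes and NSCs share most markers and were kept together. The lists held 14, 13, 10, 13 and 14 genes in this order. Their higher level in their own gate follows from the selection and is no check of the names. Of the nucleus-like barcodes, 379 lay near the limit of the gate. Microglia do not arise from Nestin-expressing NSCs of the V-SVZ, and how they came into a tdTomato sort was not tested. Sums of at least 20 barcodes came from 7 mice for astrocyte- or NSC-like and oligodendrocyte-like nuclei and from 6 mice for the other types. Smaller gates, which entered no fit, held 95 inhibitory neuron- or neuroblast-like, 72 endothelial-like, 29 oligodendrocyte progenitor-like and 4 medium spiny neuron-like barcodes.

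Microglia-like nuclei held by far the most. The 10 genes summed to 4801, 3352 and 4185 CPM in the 3 Tsc2 wt/wt mice with enough of these nuclei (replicates 1, 2 and 4) and to 1937, 3317 and 1938 CPM in Tsc2 mut/mut replicates 1 to 3. Ependymal-like nuclei followed at 719 to 1758 CPM (median 1421), then oligodendrocyte-like nuclei at 257 to 859 (median 455), choroid plexus-like nuclei at 231 to 318 (median 279) and astrocyte- or NSC-like nuclei at 115 to 256 (median 144). Every microglia-like value lay above every ependymal-like value, whereas the ranges of each later pair of neighbours in this order overlapped. Ungated nuclei of 5 mice lay at 797 to 1884 CPM.

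**Figure D3:**
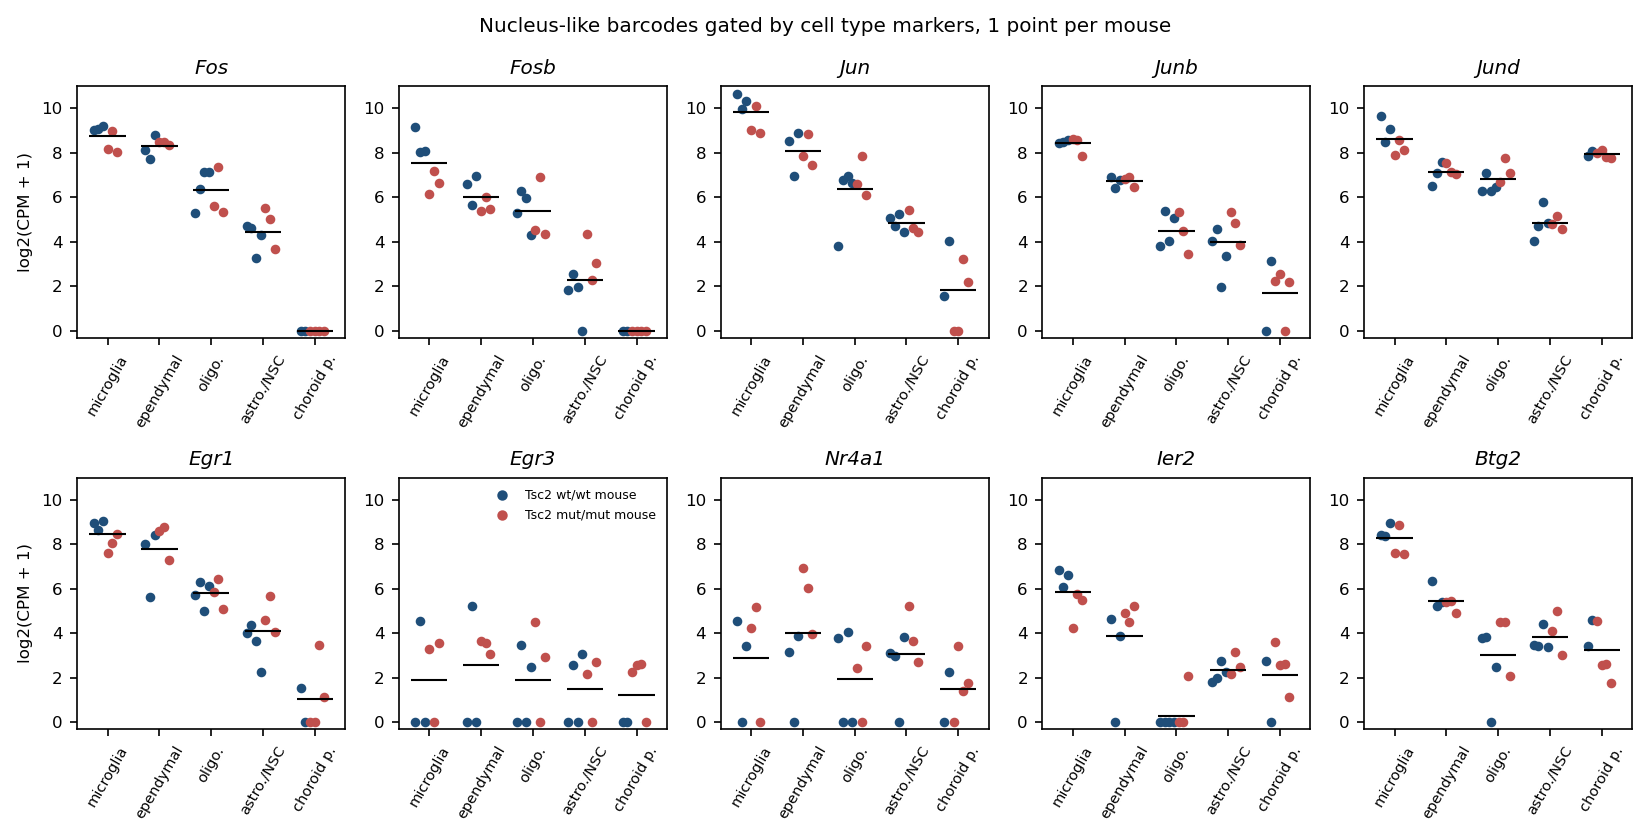
Levels of the 10 genes (y axis, log2(CPM + 1)) in nucleus-like barcodes gated as microglia-, ependymal-, oligodendrocyte-, astrocyte- or NSC- and choroid plexus-like (x axis); each point is 1 mouse, blue for Tsc2 wt/wt and red for Tsc2 mut/mut, and bars are means of the plotted values. Fos, Fosb, Jun, Junb, Jund, Egr1, Ier2 and Btg2 are highest in microglia-like nuclei on the means, all choroid plexus-like points of Fos and Fosb are at 0, and of the 10 genes only Jund has its second highest mean in choroid plexus-like nuclei.

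Fos reached 526, 540, 581, 283, 502 and 264 CPM in microglia-like nuclei of these 6 mice, 207 to 439 in ependymal-like (median 337), 38.6 to 163 in oligodendrocyte-like (median 80.8) and 8.64 to 45.0 in astrocyte- or NSC-like nuclei (median 23.6). Only ependymal-like and oligodendrocyte-like nuclei were neighbours in this order whose ranges did not overlap. Fosb was at 70.8 to 572 CPM in microglia-like nuclei (median 201) and at 0 to 19.6 CPM in astrocyte- or NSC-like nuclei (median 3.92). In choroid plexus-like nuclei no UMI of Fos or Fosb was counted among 446 barcodes, which allows a share of barcodes with a UMI of up to 0.673% for each. Against a floor of 3 UMIs over all 2652084 UMIs of those sums, Fos was at least 391-fold higher in microglia-like, 288-fold in ependymal-like, 71.9-fold in oligodendrocyte-like and 20.97-fold in astrocyte- or NSC-like nuclei. Floors and shares cover counting error only.

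Jun was at 1578, 1014, 1280, 522, 1094 and 473.5 CPM in microglia-like nuclei, against 0 to 15.5 CPM in choroid plexus-like nuclei (median 2.79) and 20.7 to 42.7 in astrocyte- or NSC-like nuclei (median 25.5). Junb and Btg2 had the same order at the top, at 231 to 389 and 187 to 502 CPM in microglia-like nuclei. Jund was highest in microglia-like nuclei too, at 239 to 800 CPM, but differed in the type that came next. It was at 216 to 277 CPM in choroid plexus-like nuclei (median 244.5) against 88.8 to 192 in ependymal-like (median 137), 77.2 to 217 in oligodendrocyte-like (median 101) and 15.3 to 54.7 in astrocyte- or NSC-like nuclei (median 26.5). Jund therefore made up nearly the whole choroid plexus-like sum. Egr1 was high in microglia-like (195 to 522 CPM) and ependymal-like nuclei (48.8 to 441 CPM). Egr3, Nr4a1 and Ier2 were at or near 0 in many sums, with Nr4a1 at 123 and 64.6 CPM in ependymal-like nuclei of Tsc2 mut/mut replicates 1 and 2 against 0 to 14.7 in the other 4 mice.

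In the edgeR fit over types, with the mouse as a block, Fos, Fosb, Jun, Junb, Jund, Egr1 and Btg2 passed the filter and all 7 were called, where 95.8% of 6728 genes were. In microglia-like nuclei against the mean of the other types, 7 of 7 were higher, where 26.3% of genes were higher. A gene could pass the filter through 1 type alone, so a gene high in microglia-like nuclei could be tested for that reason. Btg2 was at 187 to 502 CPM there and at no more than 80.8 CPM in any sum of the other types. The count of 7 of 7 is therefore a description and no support. As zeros in choroid plexus-like nuclei inflate fitted values of Fos and Fosb, contrasts are given without that type, an alternative added after the data were seen, in which 24.4% of 4387 genes were higher. There Btg2 led (log2 fold change 3.65 ± 0.24), followed by Jun (2.92 ± 0.20), Junb (2.71 ± 0.20), Fosb (2.53 ± 0.38), Egr1 (2.06 ± 0.29), Jund (1.99 ± 0.21) and Fos (1.91 ± 0.22). The 7 calls in microglia-like nuclei held in every fit that left out 1 mouse. Those fits used the same filter, so this too is a description and no support.

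Ependymal-like nuclei had 5 of 7 genes higher, where 33.5% of genes were, and without choroid plexus-like nuclei 4 remained higher, where 32.7% were. These were Egr1 (1.90 ± 0.30), Fos (1.90 ± 0.22), Jun (1.05 ± 0.23) and Junb (1.00 ± 0.25), with Fosb lost. Astrocyte- or NSC-like nuclei had 5 of 7 lower, where 24.1% of genes were, and 7 of 7 without choroid plexus-like nuclei, where 23.5% were. These 7 genes all span under 10 kb. Of 937 genes under 10 kb tested in the main fit, 630 were lower there too (median -1.11), so 5 of 7 is no result about the set. The share of short genes is not given for the fit without choroid plexus-like nuclei. In the main fit 4 of 7 were lower without Tsc2 wt/wt replicate 4 or Tsc2 mut/mut replicate 3. The share over all genes is not given with those mice left out, so this count carries no comparison. Without choroid plexus-like nuclei the values ran from -1.92 ± 0.29 in Btg2 to -3.30 ± 0.43 in Fosb, with Fos at -3.12 ± 0.23 and Jun at -3.21 ± 0.23.

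Calls in oligodendrocyte-like nuclei hung on the comparison. With choroid plexus-like nuclei among the other types, Fosb (1.71 ± 0.59) and Fos (1.28 ± 0.40) were higher, where 27.9% of genes were, and Btg2 was lower (-1.87 ± 0.38), where 25% were. Without them Fos turned to -0.69 ± 0.24, no gene of the set was higher, and 5 were lower, where 29.4% of genes were, led by Btg2 (-2.12 ± 0.37) and Junb (-1.51 ± 0.27). In choroid plexus-like nuclei Jund was higher (1.95 ± 0.17), where 33.3% of genes were, and the other 6 were lower, where 45.4% were. The weakest of these was Btg2 (-0.82 ± 0.38, adjusted p = 0.042 by edgeR), and DESeq2 called 5 of the set lower there. Leaving out 1 mouse left 5 or 6 of the set lower there, with 5 in the fits without Tsc2 wt/wt replicates 1, 2 or 4 or Tsc2 mut/mut replicates 2, 3 or 4. Shares over all genes are not given for DESeq2 or for these fits, so their counts cannot be set against the 45.4% of the main fit. On library sizes alone the calls of the set numbered the same in each direction in all 5 types, while the median of all genes moved from -0.32 to 0.19 in microglia-like and from -0.73 to -1.63 in choroid plexus-like nuclei.

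In the fit with choroid plexus-like nuclei among the other types, 11 of 38 other immediate early and primary response genes passed the filter. In microglia-like nuclei 9 of the 11 were higher, where 26.3% of all genes were, and 0 lower (median 2.49, against -0.32 over all genes). A gene high in 1 type alone could pass that filter, so these counts are a description and no support. They included Atf3 (5.58 ± 0.40), a stress-induced AP-1 family factor, Dusp6 (4.77 ± 0.32), an ERK phosphatase, Zfp36 (4.37 ± 0.23), which destabilises AU-rich mRNAs, and Ier5 (3.71 ± 0.32). Zfp36, which is on both lists, and Nfkbiz (3.36 ± 0.40) were the 2 genes of ex vivo activated microglia that were tested. Both were higher, whereas the other 11 of that list were too low to test. Heat shock and chaperone genes did not go with them in microglia-like nuclei, where 1 of 10 was higher and 7 lower (median -1.04). Of all 6728 genes 2030 were lower in microglia-like nuclei, and of 937 genes under 10 kb 390 were lower (median -0.80). Of 5 later genes of neuronal activity tested there, Rgs2 was higher (5.11 ± 0.28) and 3 were lower (median -0.87). In ependymal-like nuclei 7 of 11 other immediate early genes were higher, where 33.5% of all genes were, and 2 were lower. Ccn1, a matricellular target of YAP, was at 5.85 ± 0.33, Atf3 at 3.49 ± 0.52, Dusp1 at 2.49 ± 0.30 and Sgk1 at -3.76 ± 0.61. Zfp36 and Nfkbiz were both higher there as well, with a median of 1.74. Sizes in this fit cannot be set beside those given without choroid plexus-like nuclei. Fos in this fit was at 3.86 ± 0.29 in microglia-like and 3.72 ± 0.29 in ependymal-like nuclei.

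In choroid plexus-like nuclei all 10 heat shock and chaperone genes tested were higher (median 2.99, against -0.73 over all genes), with Hspe1 at 4.37 ± 0.16 and Hspa8 at 3.44 ± 0.18, while 7 of 11 other immediate early genes were lower, where 45.4% of all genes were, and 3 were higher, among them Sgk1 (3.09 ± 0.28). Short genes as a whole were higher there as well, 753 of 937 with a median of 3.42, and Jund is one of them. In astrocyte- or NSC-like nuclei 8 of 10 heat shock genes were lower and 0 higher (median -1.91), with Hsp90aa1 at -3.19 ± 0.27. Of all genes 24.1% were lower there (median 0.13), and of 937 genes under 10 kb 630 were lower (median -1.11).

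Shares of barcodes gave the same order at equal depth. With every barcode thinned to 500 non-mitochondrial UMIs, 72.5% ± 13.1 (SD, n = 6) of microglia-like nuclei held a UMI of any of the 10 genes, against 37.2% ± 11.4 (n = 6) of ependymal-like, 14.3% ± 5.26 (n = 7) of oligodendrocyte-like, 11.9% ± 4.26 (n = 6) of choroid plexus-like and 5.85% ± 2.43 (n = 7) of astrocyte- or NSC-like nuclei. Unthinned shares were 85.7%, 67.5%, 38.0%, 69.2% and 26.9%. Thinning thus moved choroid plexus-like nuclei, which are deeply sequenced, the furthest. All nucleus-like barcodes and all mitochondria-rich barcodes had thinned shares of 21.6% ± 5.96 and 21.01% ± 2.74 (n = 8 each), with 66 and 17540 barcodes too shallow to be thinned and unthinned shares of 49.6% and 24.5%. At 300 UMIs, where no barcode was left out, the shares were 16.6% ± 5.13 and 12.9% ± 1.48.

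The classes differed more in co-occurrence. UMIs of 2 or more different genes of the set were held by 7.32% ± 3.07 of nucleus-like and 1.89% ± 0.476 of mitochondria-rich barcodes at 500 UMIs (n = 8 each), and UMIs of 3 or more by 2.94% ± 1.55 and 0.0707% ± 0.0424. In microglia-like nuclei these shares were 38.2% ± 15.95 and 16.6% ± 7.99 (n = 6). They were 13.3% and 2.80% in ependymal-like, 3.41% and 0.814% in oligodendrocyte-like and 1.25% and 0% in choroid plexus-like nuclei. Astrocyte- or NSC-like nuclei had 0.612% ± 0.764 and 0% (n = 7), below the mitochondria-rich class, of which 60.1% passed the same gate. How far the mix of types made the difference between classes was not tested. The mitochondria-rich share with any gene of the set came mostly from Jund, seen in 12.45% ± 1.89 of barcodes at 500 UMIs, whereas Fos was seen in 0.678% ± 0.372.

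**Figure D4:**
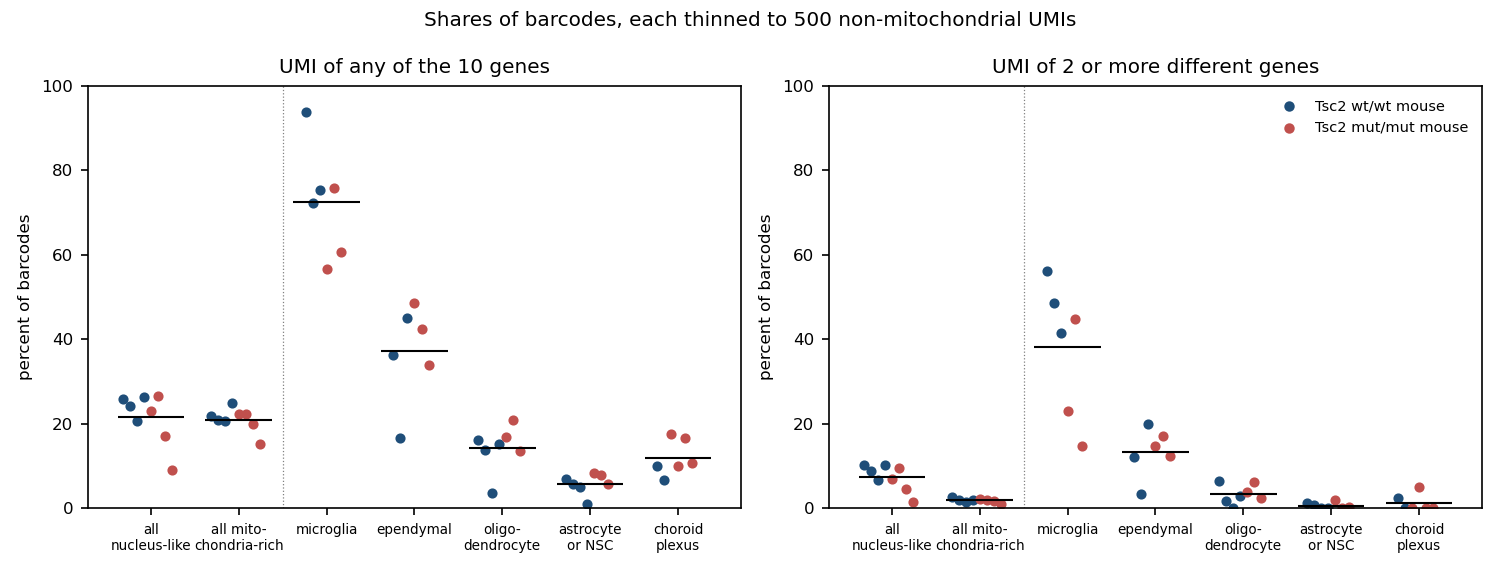
Percent of barcodes (y axis), each thinned to 500 non-mitochondrial UMIs, with a UMI of any of the 10 genes (left) or of at least 2 different ones (right), for the 2 barcode classes and the 5 gated types of nucleus-like barcodes (x axis); points are mice, blue for Tsc2 wt/wt and red for Tsc2 mut/mut, and bars are means. On the left the classes lie at 21.6% and 21.01%, and on the right at 7.32% and 1.89%, with microglia-like nuclei highest in both panels.

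Gated types were also compared across the barcode classes. Mitochondria-rich barcodes gated as astrocyte- or NSC-like held the 10 genes in sum at 366 to 544 CPM, all above the 115 to 256 CPM of nucleus-like barcodes with the same gate and close to the 300.4 to 528 CPM of free RNA. Jund (209 to 318 against 15.3 to 54.7 CPM) and Egr3 (47.3 to 67.0 against 0 to 7.52 CPM) did not overlap. The other genes did, with Fos at 5.39 to 28.3 against 8.64 to 45.0 CPM. Jun was at 16.2 to 36.1 against 20.7 to 42.7 CPM and Egr1 at 36.4 to 99.2 against 3.76 to 50.9 CPM. Oligodendrocyte-like barcodes differed from this. Mitochondria-rich ones, 73 to 425 per mouse, held Fos at 0 to 37.65 CPM, against 38.58 to 163.1 CPM in nucleus-like ones. Fosb was at 0 to 14.23 against 18.58 to 119.6 CPM, so neither gene overlapped. Jund, at 227.7 to 362.2 against 77.15 to 217.4 CPM, did not overlap in the other direction, and the remaining genes overlapped. Only 51 mitochondria-rich barcodes passed the gate of microglia and 10 that of ependyma, against 351 and 263 nucleus-like ones. Median non-mitochondrial UMIs per barcode were 466.5 to 625 in mitochondria-rich and 1760 to 4117 in nucleus-like barcodes. Of the mitochondria-rich barcodes 34.7% stayed ungated, against 10.8% of the nucleus-like ones. The gate needs marker UMIs, so these counts do not show that the types with most Fos were absent from the mitochondria-rich class.

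Across 32 sums of a mouse and a type, which share libraries and depth, Fos went with Egr1 (Pearson r = 0.944), Jun (0.933), Fosb (0.932) and Junb (0.899), and hardly with Jund (0.140) or Egr3 (0.162). Outside the set, the summed level was most like that of Rassf4 (r = 0.882), Man1a (0.865), Il6ra (0.860), Atf3 (0.855) and Rnase4 (0.845). Fos and Fosb were each most like Csmd3 (0.952 and 0.937), Jun was most like Ulk2 (0.915) and Jund most like H3f3b (0.913), which encodes the replication-independent histone H3.3. Atf3 is itself an immediate early gene.

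The third question was whether loss of Tsc2 moved these genes. No gene of the set was called between genotypes in any class or type. In all kept barcodes 10 were tested and 0 called by edgeR, where 0.0155% of 12916 genes were called, and 0 were at an unadjusted p under 0.05, where 2.56% of all genes were. The largest difference was that of Nr4a1, at 13.2, 8.27, 9.20 and 11.7 CPM in Tsc2 wt/wt and 25.4, 25.2, 11.8 and 4.04 CPM in Tsc2 mut/mut mice (log2 fold change 0.68 ± 0.41). The Tsc2 mut/mut values surrounded the Tsc2 wt/wt values. Without Tsc2 mut/mut replicate 4, Nr4a1 was at 0.94, again not called. DESeq2 on all 8 mice also called 0 genes of the set.

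In nucleus-like barcodes 0 of 9 genes were called, where 0% of 11048 genes were. The median log2 fold change was -0.44 in the set and 0.63 in 1919 genes under 10 kb. The Tsc2 mut/mut sums include replicate 4, in which 85.4% of nucleus-like barcodes were choroid plexus-like, with Fos at 5.63 and Jun at 16.9 CPM. These values therefore hold the mix of types in that mouse as well as genotype. The same mouse was also lowest for the 10 genes in sum in mitochondria-rich barcodes, at 364.3 against 442.3 to 576.1 CPM. There 0 of its barcodes passed the choroid plexus gate. It was lowest in free RNA too, at 300.4 against 412.8 to 528 CPM, and the cause was not tested. At an unadjusted p under 0.05, 0 of the 9 and 1.52% of all genes were found, and DESeq2 called 0 of the 9. In mitochondria-rich barcodes 0 of 8 were called, where 0.317% of 10097 were. At an unadjusted p under 0.05, 1 of the 8 and 1312 of all genes were found, and 4 of 9 and 1258 of 10323 without Tsc2 mut/mut replicate 4. The largest difference there was that of Fos (0.70 ± 0.35, adjusted p = 0.43 by edgeR). Jund had the smallest p there, at 284, 237, 299 and 329.6 CPM in Tsc2 wt/wt and 227, 261, 209 and 219.7 CPM in Tsc2 mut/mut mice, a log2 fold change of -0.33 ± 0.11 with an adjusted p of 0.19, and the groups overlapped by 1 mouse of each genotype. The difference of the genotype effect between the classes was tested by itself and gave 0 calls among 10 genes, where 0% of 12981 genes were called, with Fos (-1.38 ± 0.37), Ier2 (-1.36 ± 0.43) and Junb (-0.99 ± 0.41) at an unadjusted p under 0.05, where 3.1% of all genes were, and an adjusted p of 0.82 by edgeR. DESeq2 called 0 of the 10 as well.

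Microglia-like nuclei gave the widest gap between genotypes, in 3 against 3 mice. Fosb was at 572, 259 and 266 CPM in Tsc2 wt/wt and at 70.8, 143 and 99.1 CPM in Tsc2 mut/mut mice, without overlap, and its log2 fold change was -1.72 ± 0.39 with an adjusted p of 0.14 by edgeR. Of the 7 genes tested, 0 were called, where 0.0912% of 2194 genes were. At an unadjusted p under 0.05, 5 were lower in Tsc2 mut/mut mice (Fosb, Jun, Jund, Egr1 and Fos), where 8.66% of all genes tested were at such a p. Without Tsc2 mut/mut replicate 2, Fosb (-1.96 ± 0.42) and Jun (-1.33 ± 0.25) were called, and without Tsc2 wt/wt replicate 2, Fosb was (-1.91 ± 0.41). DESeq2 called 0 of the 7, with 4 at an unadjusted p under 0.05. That number was 2 with the replicate block, 3 without Tsc2 mut/mut replicate 1 and 3 without Tsc2 wt/wt replicate 4. Shares over all genes are not given for these other fits, so their counts cannot be set against the 8.66% of the main fit. Of the 10 other immediate early genes tested, Klf4 alone was called (-2.61 ± 0.49, adjusted p = 0.036), and that call was lost in the fits with the replicate block and without Tsc2 mut/mut replicate 1 or Tsc2 wt/wt replicates 1 or 4, which called no gene of any kind.

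Astrocyte RNA moved with this gap. In the microglia gate the 14 astrocyte or NSC markers summed to 1143 to 2879 CPM in Tsc2 wt/wt and 4016 to 5142 CPM in Tsc2 mut/mut mice, without overlap, while the 13 microglia markers summed to 16690 to 18520 and 15200 to 16060 CPM. Its part in the result was not tested. With a stricter gate, at a lead of 3 times over the next list, an alternative added after the data were seen, 5 genes were again at an unadjusted p under 0.05 and 0 were called. The share of all genes at such a p is not given for this gate, so the count carries no comparison. That gate removed barcodes unevenly, leaving 40 of 74, 22 of 33 and 24 of 61 in Tsc2 mut/mut replicates 1 to 3 against 32 of 33, 68 of 76 and 51 of 57 in Tsc2 wt/wt replicates 1, 2 and 4.

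The other types held no call between genotypes. In astrocyte- or NSC-like nuclei 0 of 5 genes were called, where 0.183% of 7123 were, in oligodendrocyte-like nuclei 0 of 5, where 0.0527% of 3793 were, in ependymal-like nuclei 0 of 5, where 0% of 2498 were, and in choroid plexus-like nuclei 0 of 1, where 3.02% of 4504 were. Fos differed by 0.41 ± 0.45, -0.66 ± 0.47 and 0.19 ± 0.28 in the first 3 of these. These errors leave room for changes of this size in either direction, and a missed threshold does not show that genotypes were alike.

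**Figure D5:**
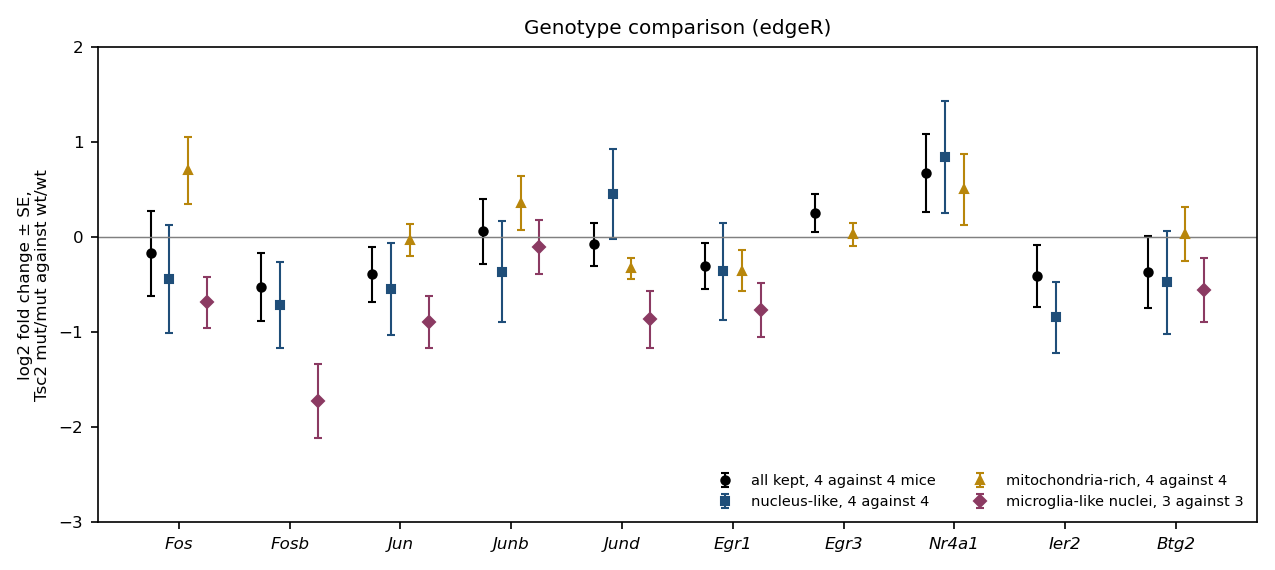
Log2 fold change ± SE (y axis) of Tsc2 mut/mut against Tsc2 wt/wt mice for each of the 10 genes (x axis), by edgeR, in all kept barcodes (black circles), nucleus-like barcodes (blue squares), mitochondria-rich barcodes (gold triangles) and microglia-like nuclei (purple diamonds); a missing symbol means that the gene was below the filter. No value was called, and Fosb in microglia-like nuclei, at -1.72, lies furthest from 0.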

How the data were processed

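Nuclei sorted from the V-SVZ of 8 mice were sequenced with 10x 3′ v3.1 chemistry. The authors aligned reads to GRCm38 (mm10) with Cell Ranger 7.0.1, per the file headers, forced to 60000 barcodes per library, and deposited raw UMI counts per gene and barcode. The submitters' processing notes also name Seurat. Whether introns were counted is not given in the sources used here, and no doublets or free RNA were removed here.

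Barcodes with at least 300 genes were kept and split by mitochondrial share. The 13 mitochondrial genes were left out of all sums. A type needed at least 3 UMIs of at least 2 of its markers and a lead of 2 times over the next of 11 lists (122 genes). Counts were summed per mouse and class or type, and the edgeR 4.0.16 quasi-likelihood test with TMM factors and Benjamini-Hochberg adjustment over all genes tested was used (R 4.3.3), with the mouse as a block between classes and types. A gene was called at an adjusted p under 0.05, and SE is the log2 fold change divided by the square root of F. DESeq2 1.42.0 was an alternative. No type had 20 barcodes in every mouse, so sums of at least 20 barcodes of types with at least 5 mice were used. Each mouse was 1 library. The p-values of genotype comparisons within a class or type measure the spread between mice. Where the mouse was a block, they measure how differences within a mouse vary among mice. Other genes were named as those with the largest change per list among those called. Scripts were tested on simulated data. The 10 genes, lists and markers were chosen with earlier results of these data known.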

Additional observations from a re-analysis of the deposited data

Results flagged for a closer look

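In groups of 4 mice, 10 of 183 sets of levels held 1 mouse far from the other 3 by Dixon's test, and chance alone marks about 1 in 20. Egr3 in all kept barcodes was at 25.9 CPM in Tsc2 wt/wt replicate 1 against 38.2 to 40.6 CPM in the other 3. Jund in free RNA was at 264.9 CPM in Tsc2 mut/mut replicate 2 against 199.3 to 203.9, and Nr4a1 in free RNA was at 11.89 CPM in Tsc2 wt/wt replicate 1 against 10.08 to 10.35.

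In nucleus-like barcodes Btg2 was at 20.17 CPM in astrocyte- or NSC-like nuclei of Tsc2 wt/wt replicate 3 against 9.397 to 10.19. In choroid plexus-like nuclei Egr1 was at 10.19 CPM in Tsc2 mut/mut replicate 3 against 0 to 1.215, and Btg2 was at 22.58 CPM in Tsc2 mut/mut replicate 1 against 2.431 to 5.096.

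In mitochondria-rich barcodes gated as astrocyte- or NSC-like, Ier2 was at 1.821 CPM in Tsc2 mut/mut replicate 4 against 4.293 to 4.785. In those gated as oligodendrocyte-like, Fosb was at 9.331 CPM in Tsc2 wt/wt replicate 2 and Ier2 at 7.53 CPM in Tsc2 mut/mut replicate 2, each with 0 in the other 3 mice of its genotype. Both equal the lowest level above 0 of any of the 10 genes in their sums, so they rest on very few UMIs. The 10 genes together stood in oligodendrocyte-like ones at 682 CPM in Tsc2 wt/wt replicate 4 against 493.9 to 503.9.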

How the results depend on the processing

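Of the recomputed counts of genes called and shares of barcodes, 144 under planned settings and 78 under settings added after the data were seen stayed within 1.5 times (counts) or 1 SD (shares), and 5 and 8 moved further. Of the recomputed log2 fold changes, 262 planned and 23 added kept direction and call, 10 and 1 changed sign, 7 and 2 lost a call, and 2 and 2 gained one. Depth limits the values of types, since a gene at 0 in a sum of few barcodes could not be told from a low level, and barcodes under 500 UMIs were left out of thinned shares. In oligodendrocyte-like nuclei 5 genes were called without choroid plexus-like barcodes, against 3. Between genotypes within types, leaving out 1 mouse gave 0 to 2 calls, 2 without Tsc2 mut/mut replicate 2 and 1 without Tsc2 wt/wt replicate 2. Thinned to 300 UMIs, shares with a UMI of the set were 16.6% in nucleus-like and 12.9% in mitochondria-rich barcodes and 52.8% in microglia-like and 24.9% in ependymal-like nuclei. Unthinned they were 49.6% in nucleus-like and 24.5% in mitochondria-rich barcodes, and 26.9%, 38.0%, 85.7%, 67.5% and 69.2% in astrocyte- or NSC-like, oligodendrocyte-like, microglia-like, ependymal-like and choroid plexus-like nuclei, as depth per barcode differs. Between genotypes in all kept barcodes, signs turned for values near 0. With 1 mouse left out, log2 fold changes ran from -0.48 to 0.13 in Fos, from -0.18 to 0.29 in Junb and from -0.24 to 0.025 in Jund, and with at least 500 genes per barcode they were -0.16 in Junb, 0.048 in Jund and -0.12 in Egr3. Nr4a1 between classes turned to 0.063 on library sizes alone. The causes were not tested.

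Replicate numbers are shared by the genotypes, and same-numbered mice did not deviate together in every pair. Correlations of their deviations were -0.783, 0.38, 0.598 and 0.245 in nucleus-like barcodes, -0.183 to 0.116 in all kept and -0.301 to -0.071 in mitochondria-rich barcodes, so the numbers were not taken as pairs. With the replicate block 0 genes of the set were called between genotypes in any class or type, as without it, and Junb in all kept barcodes was at -0.036. Without the mouse as a block between classes, 7 genes were called in place of 8, and Nr4a1 was lost (-0.43, adjusted p = 0.29 by edgeR). With the block 78.9% of all genes were called, so neither count is a result about the set.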

Other observations

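Among nucleus-like barcodes gated as inhibitory neuron or neuroblast, 2 mice gave at least 20 barcodes. Egr1 was at 100.0 and 188.6 CPM there, Egr3 at 14.29 and 25.15 CPM and Fosb at 0 in both. With 2 mice these values carry no comparison. Ungated nucleus-like barcodes of 5 mice held Jun at 224.7 to 592.6 CPM (median 240.0) and Nr4a1 at 17.69 to 68.58 CPM (median 27.04).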
